A study of Auxenochlorella pyrenoidosa with 12 samples.

Results

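Among the transcripts of the green alga Auxenochlorella pyrenoidosa, also known as Chlorella pyrenoidosa, 204 contigs stood higher in all 3 libraries of the highest dose of potassium peroxymonosulfate than in any of the 9 other libraries, while their mean levels at the lower doses stayed near control. A contig is a transcript sequence assembled from the reads. The contigs were chosen by their measured levels in all 12 libraries, from 29140 contigs listed and 11520 with a mean of at least 2 FPKM (fragments counted relative to contig length and to the library's total). The rule scaled each library by its median ratio to the contig means and took log2(scaled FPKM + 1), the scale of every log2 value below. It kept contigs whose mean at 0.5 EC50 was at least 0.7 above the control mean on that scale, whose means at 0.1 and 0.2 EC50 each differed from control by less than 0.4, and whose lowest 0.5 EC50 library lay above the highest of the 9 others. The first condition left 1082 contigs, the limit at 0.1 EC50 left 517, the limit at 0.2 EC50 left 359, and the last condition left 204. Since all 12 libraries entered the choice, the differences of these contigs between groups are given as a description without a test.

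Whole algal cells were compared after no exposure (control) and after exposure to 0.1, 0.2 or 0.5 of the EC50, the concentration with a median effect. These fractions correspond to 1.70, 3.40 and 8.49 mg/L, and each of the 4 groups had 3 libraries. Chronic cultures of the study ran for 12 days, and the sources used here do not give the sampling day of the RNA. It is not stated whether replicate libraries stem from separate cultures, and their spread may be technical.

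Peroxymonosulfate is an oxidant used in water treatment that can give rise to sulfate and hydroxyl radicals. Unicellular algae are known to meet such oxidants with enzymes that remove peroxides and superoxide, with glutathione and thioredoxin systems, and with protein chaperones and proteases, while the photosynthetic apparatus is a known site of damage. The deposited table gives contig identifiers without gene names or sequences, so none of the 204 contigs can be assigned to these functions here, and no pathway list was used.

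The total depth of the libraries is unknown, and summed FPKM lay between 503295 and 561291. For these contigs 3 libraries stood apart within their groups, replicate 2 at 0.2 EC50 and control replicates 2 and 3, with median differences from the control mean of -0.99, -0.40 and 0.50 on the log2 scale. The choice of contigs and the calls in the fit over all contigs are given with and without each of them. The number of contigs with at least 1 FPKM was 14015 in 0.2 EC50 replicate 2, the lowest of the 12 libraries, against 17280 and 17446 in its 2 companions. It was between 18157 and 18475 in the 0.5 EC50 libraries, 18261 in control replicate 3, 16118 and 16569 in control replicates 1 and 2, and between 14989 and 16866 at 0.1 EC50. The part of these differences between libraries in the results below was not tested.

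The 204 contigs were mostly of low to moderate abundance. Their mean over the 12 libraries ranged from 2.00 to 289 FPKM with a median of 6.52 FPKM, 86 lay under 5 FPKM and 3 reached 50 FPKM. The median over the contigs of the mean level was 4.77 FPKM without exposure, 4.30 at the lowest dose, 4.73 at the middle dose and 12.1 FPKM at the highest dose. Together they held 0.26% to 0.547% of the summed FPKM in the controls, 0.287% to 0.361% at the lowest dose, 0.168% to 0.527% at the middle dose and 0.791% to 1.05% at 0.5 EC50. The 2 lower doses overlapped the controls on this measure and the 0.5 EC50 libraries did not. The rule largely fixes this, since it asks the same of each contig on the scaled values. In 202 of the 204 contigs every library had a value above 0, as in 96.4% of all contigs tested.

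The difference between 0.5 EC50 and control had a median of 1.07 on the log2 scale and ranged from 0.71 to 1.94. In 134 contigs it was at least 1, and in 10 at least 1.5. Over all 11520 contigs its median was 0.02. The differences at the lower doses were held near 0 by the rule, with medians of -0.03 at 0.1 EC50 and -0.10 at 0.2 EC50. Within those limits the mean at 0.1 EC50 lay above control in 88 contigs (43.1%) and the mean at 0.2 EC50 in 76 (37.3%), beside 52.2% and 47.5% of all contigs. With 0.2 EC50 replicate 2 set aside, the other 2 libraries of that dose lay above the control mean by a median of 0.36 over the 204. The gap between the lowest 0.5 EC50 library and the highest other library had a median of 0.20. It was at least 0.4 in 43 contigs and below 0.1 in 47, and over all contigs 5.65% met the condition that this gap be above 0.

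**Figure D1:**
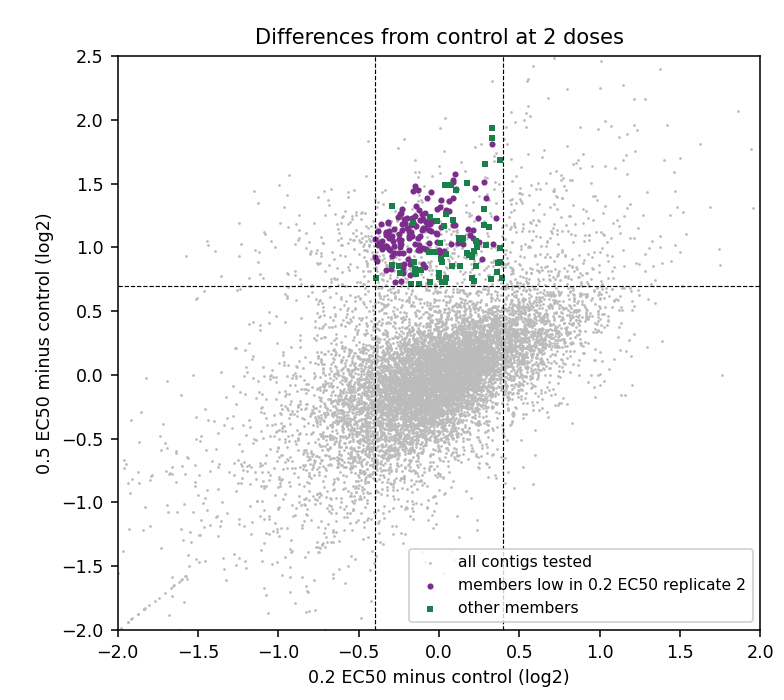
Difference from control at 0.5 EC50 (vertical axis) against that at 0.2 EC50 (horizontal axis), both on the log2 scale, for 11520 contigs, of which 85 lie outside the plotted range. Dashed lines are the limits of the rule at 0.7 and 0.4; purple points (142) and green squares (62) are the chosen contigs, split by their level in 0.2 EC50 replicate 2.

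The 204 contigs differed in 0.2 EC50 replicate 2. Its level minus the mean of replicates 1 and 3 of that dose ranged from -2.67 to 0.53 on the log2 scale. Per bin of 0.25, the number of contigs peaked at 35 in the bin from -1.75 and at 22 in that from -0.25. The bins from -1 and -0.75 held 10 and 9. A dividing value of -0.75 was chosen after seeing the data, in this sparser stretch. At or below it lay 142 contigs (69.6%), with a median of -1.64, and above it 62, with a median of -0.17. These medians follow in part from the division, and 19 contigs lay within 0.25 of the dividing value. Over all 11520 contigs, 1161 (10.1%) were lower by at least 0.75 in that library. The split describes the contigs and gets no test.

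**Figure D2:**
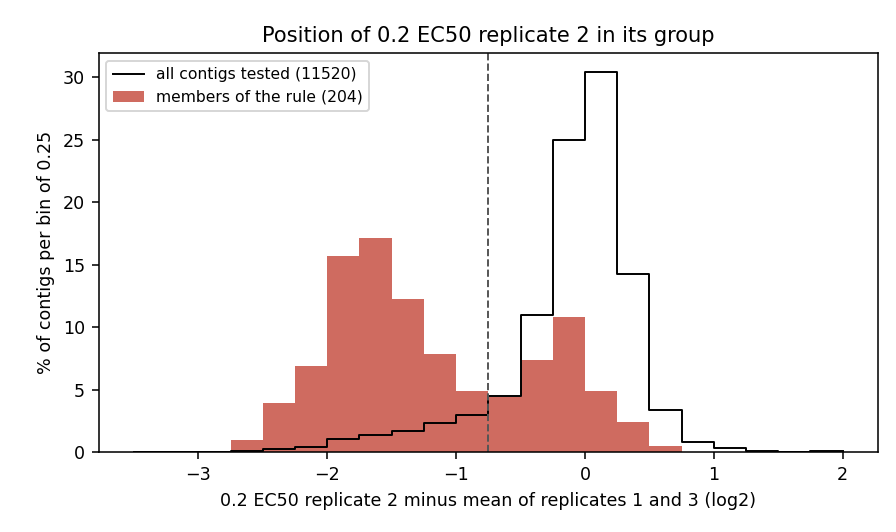
Level of 0.2 EC50 replicate 2 minus the mean of replicates 1 and 3 (log2, horizontal axis) as the percentage of contigs per bin of 0.25 (vertical axis). Red bars are the 204 chosen contigs and the black line is all 11520 contigs; the dashed line at -0.75 leaves 142 chosen contigs on its left and 62 on its right.

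In the group of 142, libraries of the same dose differed widely. The median difference from the control mean was -0.08, -0.49 and 0.58 in control replicates 1, 2 and 3. It was -0.04, -0.13 and 0.12 in the 0.1 EC50 libraries, and 0.44, -1.24 and 0.37 in the 0.2 EC50 libraries. At 0.5 EC50 it was 0.85, 1.41 and 1.09. Control replicate 3 and both 0.2 EC50 replicates 1 and 3 thus stood between the other controls and the 0.5 EC50 libraries, and 0.2 EC50 replicate 2 stood below all of them.

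The order of the libraries was similar in most of these contigs. In 136 of the 142, 0.2 EC50 replicate 2 was the lowest of all 12 libraries, which largely restates how the group was divided off. The 1019 contigs outside the 204 that were also lower by at least 0.75 in that library, and were not held to the limits of the rule, are therefore set beside them, and there it was the lowest in 50.1%. Control replicate 3 was the highest control in 135 of the 142 (95.1%) and control replicate 2 the lowest in 126 (88.7%), beside 51.5% and 62.2% of the 1019. At 0.5 EC50 replicate 2 was the highest in 121 (85.2%) and replicate 1 the lowest in 120 (84.5%), beside 43.8% and 36.2% of the 1019. Across the 9 libraries outside 0.5 EC50, a single profile held 87.3% of the variation of the 142 contigs, 38.8% of that of the 1019, 34.8% of that of the other 62 and 29.4% of that of all contigs. The division and the limits of the rule enter these shares, and no test was made. By the medians over the 142, the libraries with the fewest and with the most contigs at 1 FPKM among the 9 were also the lowest and the highest. These were 0.2 EC50 replicate 2 and control replicate 3. Control replicate 2 went the other way, with 16569 such contigs and a median of -0.49. Control replicate 1 and 0.1 EC50 replicates 1 and 2 had fewer contigs (16118, 14989 and 15349) but higher medians (-0.08, -0.04 and -0.13). Whether the 2 measures go together was not tested.

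**Figure D3:**
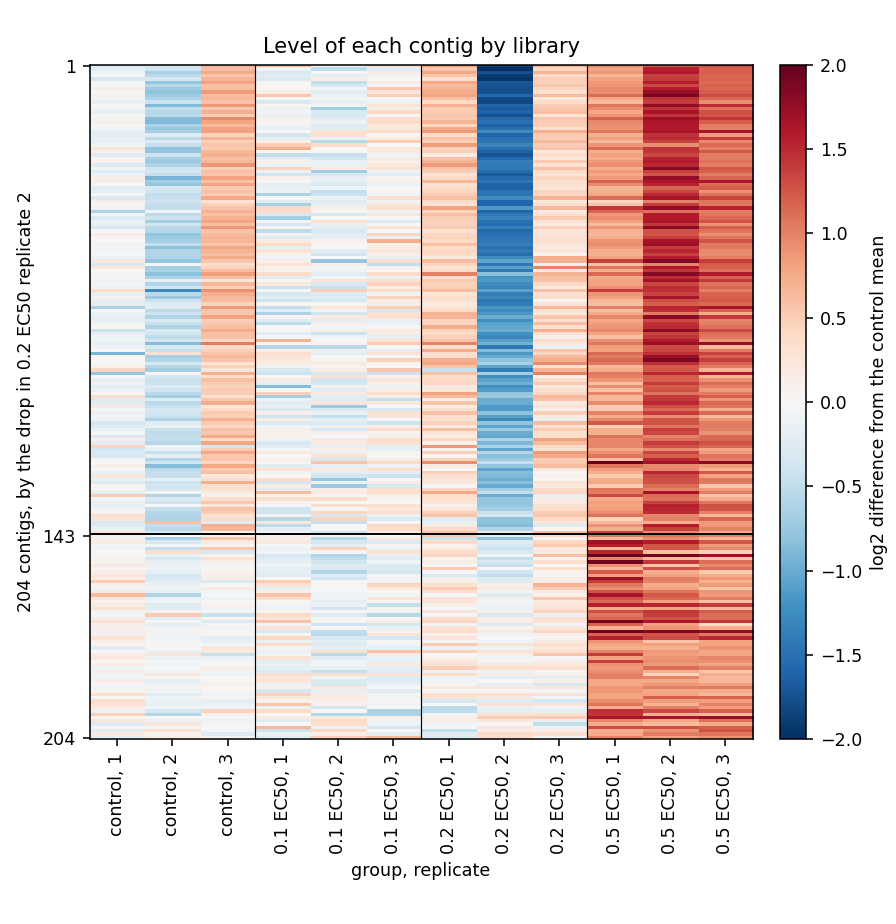
Difference of each library from the control mean (log2, colour) for the 204 contigs (rows) in the 12 libraries (columns, by group and replicate). Rows are ordered by the drop in 0.2 EC50 replicate 2, and the black line separates the 142 contigs with a drop of at least 0.75, which share a blue column there, from the other 62, which are pale in all 9 libraries outside 0.5 EC50.

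The contig with the highest level at 0.5 EC50 belonged to this group. TRINITY_DN665_c0_g1_i1_3 had levels of 194, 176 and 337 FPKM in control replicates 1 to 3, 193, 187 and 214 at 0.1 EC50, 297, 71.6 and 283 at 0.2 EC50, and 382, 550 and 588 FPKM at 0.5 EC50. The 0.5 EC50 libraries did not overlap the others, but the lowest of them lay only 0.14 above control replicate 3 on the log2 scale, and the lowest of all was 0.2 EC50 replicate 2. Its group means were 236 ± 88.7 FPKM in the controls and 507 ± 110 FPKM at 0.5 EC50 (SD, n = 3), a log2 difference of 1.01.

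TRINITY_DN13517_c0_g1_i1_2 had the smallest summed differences at the lower doses of all 204 contigs, with log2 differences of -0.01 at 0.1 EC50 and 0.01 at 0.2 EC50. Its single values were 2.83, 1.32 and 4.70 FPKM in the controls, 2.55, 2.23 and 2.61 at 0.1 EC50, 5.27, 0.773 and 3.83 at 0.2 EC50, and 6.24, 10.2 and 7.77 FPKM at 0.5 EC50. Behind the 0.2 EC50 mean, 1 library below all controls stood beside 2 libraries above the control mean. At 0.5 EC50 the mean was 8.08 ± 2.01 FPKM, against 2.95 ± 1.69 in the controls (SD, n = 3), a log2 difference of 1.16.

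With 0.2 EC50 replicate 2 set aside, the remaining 2 libraries of that dose lay above the control mean by a median of 0.43 in the group of 142. In 77 of the 142, and in 86 of all 204 contigs, this difference was at least 0.4, the limit of the rule, and 17.4% of all contigs reached it. By that limit on the means, the description of these 86 contigs as raised at the highest dose alone holds only with 0.2 EC50 replicate 2 included. The control mean contains the low control replicate 2. Both 0.2 EC50 replicates 1 and 3 lay above all controls in 17 of the 142 and 37 of the 204 (18.1%), beside 24.0% of all contigs. The 0.5 EC50 mean exceeded the mean of 0.2 EC50 replicates 1 and 3 by a median of 0.70 in the group of 142, and exceeded control replicate 3 by a median of 0.53.

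**Figure D4:**
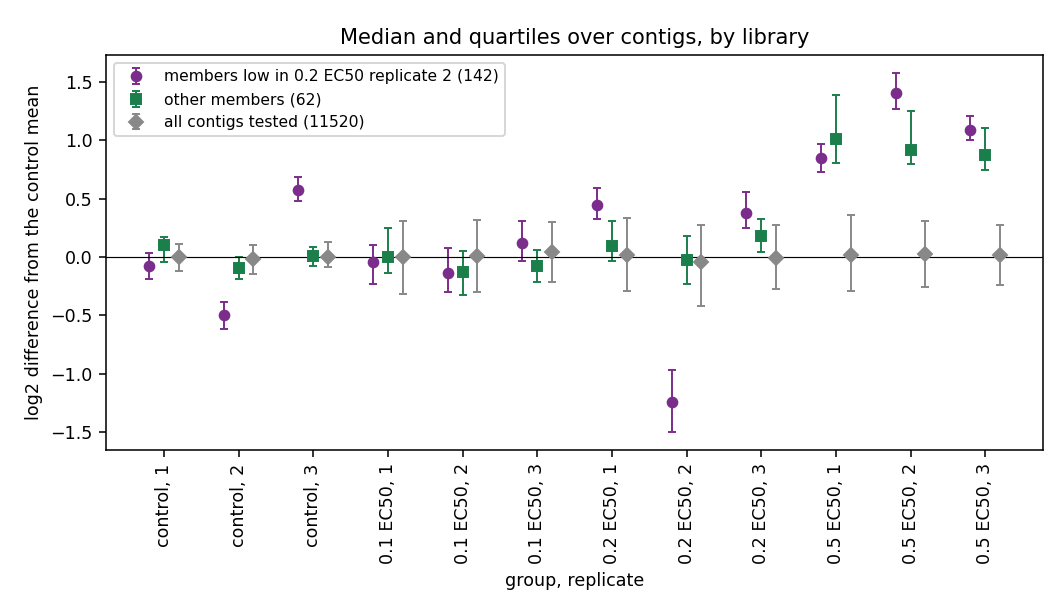
Median (symbol) and quartiles (bars) over contigs of the log2 difference from the control mean, for each of the 12 libraries. The 142 contigs (purple) range from -1.24 in 0.2 EC50 replicate 2 to 1.41 in 0.5 EC50 replicate 2, the other 62 (green) lie between -0.13 and 0.18 outside 0.5 EC50 and between 0.88 and 1.01 in it, and all 11520 contigs (grey) stay near 0.

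In the other 62 contigs the 9 libraries of control, 0.1 and 0.2 EC50 differed less, which the rule and the division in part fix, since the rule limits the group means and the division sets aside the contigs low in 1 of the 9 libraries. Their median difference from the control mean lay between -0.13 and 0.18 in each of those 9 libraries and was 1.01, 0.92 and 0.88 in the 0.5 EC50 libraries. The mean at 0.2 EC50 lay above control in 43 of the 62 (69.4%) and in 33 of the 142 (23.2%), a contrast that the division by 1 library of that dose also enters. Control replicate 3 was the highest control in 16 of the 62 (25.8%), beside 34.0% of all contigs. Replicate 1 at 0.5 EC50 was the highest of its group in 37 (59.7%), beside 39.5%. The gap between the lowest 0.5 EC50 library and the highest other library had a median of 0.39, against 0.15 in the larger group. All 4 of the 204 contigs with a gap of at least 1 were among the 62. Over all 11520 contigs, 22 (0.19%) had such a gap.

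The 2 contigs with the largest rise of all 204 belonged to this group. TRINITY_DN3540_c0_g1_i1_3 had 3.05, 2.46 and 3.24 FPKM in control replicates 1 to 3, 1.98, 1.42 and 2.31 at 0.1 EC50, 4.33, 2.70 and 5.20 at 0.2 EC50, and 18.2, 14.9 and 13.0 FPKM at 0.5 EC50. The means were 2.91 ± 0.407 and 15.4 ± 2.64 FPKM in control and 0.5 EC50 (SD, n = 3), a log2 difference of 1.94. At 0.1 EC50 all 3 libraries were below every control, and at 0.2 EC50 the libraries overlapped the controls, with log2 differences of -0.36 and 0.33.

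TRINITY_DN6367_c0_g1_i1_3 had the second largest rise and the largest gap. Its values were 1.49, 1.77 and 1.85 FPKM in the controls, 1.13, 0.825 and 1.71 at 0.1 EC50, 2.55, 2.05 and 2.73 at 0.2 EC50, and 9.90, 9.56 and 9.26 FPKM at 0.5 EC50. The 3 libraries at 0.5 EC50 were close to each other, and the lowest exceeded the highest other library, at 0.2 EC50, by 1.36 on the log2 scale. All 3 libraries at 0.2 EC50 lay above the controls, by 0.33 in the mean, which is inside the limit of the rule. Such an order, all 0.2 EC50 libraries above all controls, occurred in 11 of the 62 contigs (17.7%), near the 17.6% of all contigs. It occurred in 0 of the 142, which the division by 0.2 EC50 replicate 2 largely fixes.

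TRINITY_DN12736_c0_g1_i1_4 had the second largest gap, 1.18. Its levels were 4.59, 3.16 and 4.55 FPKM in control replicates 1 to 3, 3.61, 3.24 and 2.49 at 0.1 EC50, 4.54, 3.61 and 5.09 at 0.2 EC50, and 14.8, 14.8 and 13.8 FPKM at 0.5 EC50. The groups outside 0.5 EC50 overlapped each other, and the log2 difference between 0.5 EC50 and control was 1.49.

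TRINITY_DN151_c0_g1_i1_2, the second most abundant of the 204 at 0.5 EC50, showed the same form at a higher level. It had 95.5, 71.4 and 94.3 FPKM in control replicates 1 to 3, 97.6, 75.5 and 80.9 at 0.1 EC50, 114, 92.7 and 115 at 0.2 EC50, and 206, 228 and 212 FPKM at 0.5 EC50. The rise from 87.1 ± 13.6 to 215 ± 11.1 FPKM (SD, n = 3) was 1.18 on the log2 scale, with 0.28 at 0.2 EC50.

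TRINITY_DN2_c4_g1_i2_4 had the second smallest summed differences at the lower doses, -0.02 at 0.1 EC50 and 0.02 at 0.2 EC50. Its values were 15.7, 12.1 and 12.9 FPKM in the controls, 15.7, 10.3 and 11.5 at 0.1 EC50, 14.6, 12.7 and 14.5 at 0.2 EC50, and 25.8, 28.5 and 31.0 FPKM at 0.5 EC50. At 0.2 EC50 its 3 libraries were similar, unlike those of TRINITY_DN13517_c0_g1_i1_2 (log2 SD 0.07 against 0.94). At 0.1 EC50 they differed more than those of that contig (0.25 against 0.06). The log2 difference of TRINITY_DN2_c4_g1_i2_4 at 0.5 EC50 was 0.89.

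**Figure D5:**
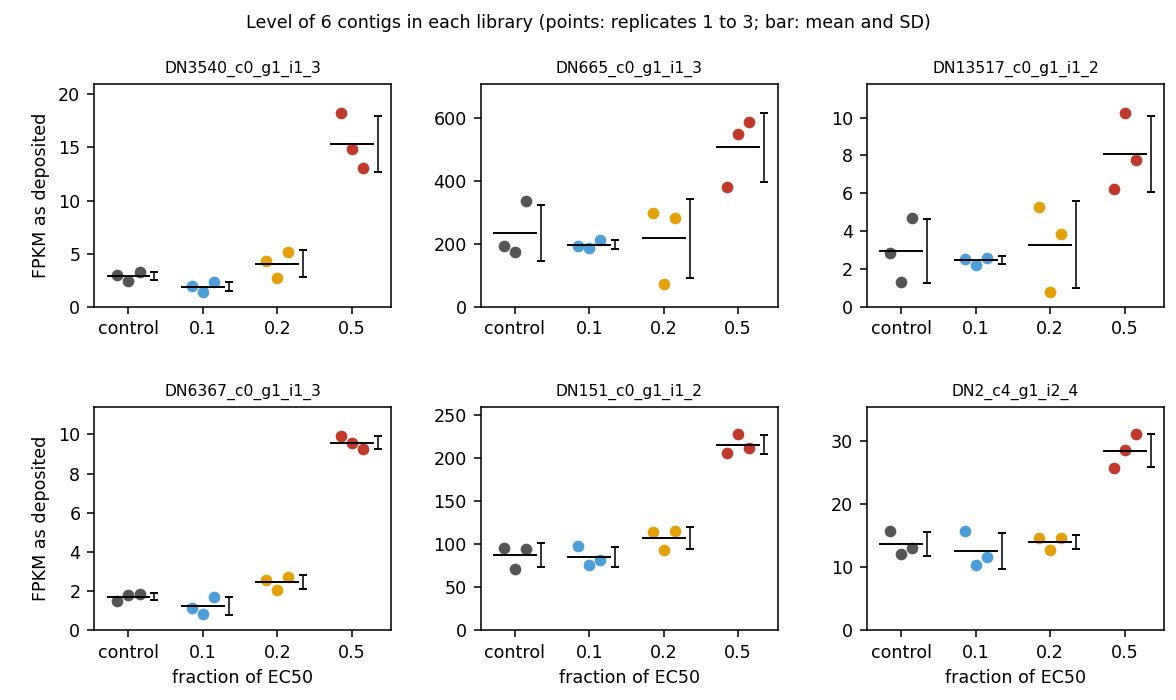
FPKM as deposited (vertical axis, from 0) by fraction of the EC50 (horizontal axis) for 6 of the 204 contigs, 2 each with the largest rise (left), the highest level (middle) and the smallest differences at the lower doses (right). Points are replicates 1 to 3 from left to right, horizontal bars are means and vertical bars the SD (n = 3). DN665_c0_g1_i1_3 and DN13517_c0_g1_i1_2 have a second library at 0.2 EC50 (71.6 and 0.773 FPKM) lower than its companions by at least 0.75 (log2). In the other 4 it is also the lowest of that dose, with smaller log2 differences from its companions. These are -0.57 in DN3540_c0_g1_i1_3, -0.20 in DN6367_c0_g1_i1_3, -0.22 in DN151_c0_g1_i1_2 and -0.11 in DN2_c4_g1_i2_4.

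Contigs just inside and just outside the limit on the rise had similar values. The smallest rise inside it was that of TRINITY_DN14826_c0_g1_i1_4, 0.712, with 14.6 ± 3.90 FPKM in the controls and 26.5 ± 3.72 FPKM at 0.5 EC50 (SD, n = 3). Next came TRINITY_DN13366_c0_g1_i1_4 at 0.714, with 5.16 ± 1.00 and 9.88 ± 0.638 FPKM. Just outside lay TRINITY_DN19362_c0_g1_i1_3 at 0.698, with 3.99 ± 0.450 and 7.77 ± 0.741 FPKM, and TRINITY_DN815_c0_g1_i3_4 at 0.685, with 12.4 ± 1.67 and 22.4 ± 1.70 FPKM. In all, 257 contigs missed the rule by the size of the rise alone, 155 by overlap with another library, 57 by the limit at 0.2 EC50 and 26 by the limit at 0.1 EC50.

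The 204 were also read in a fit over all 11520 contigs with limma, a linear model in which the 4 groups share 1 estimate of the spread. Because the rule used the same comparison, the counts are no evidence for the contigs. Higher levels at 0.5 EC50 than in control were called, at an adjusted p under 0.05, for 67 of the 204, beside 5.28% of all contigs. Of these 67, 58 were among the 62 and 9 among the 142 that are low in 0.2 EC50 replicate 2. Without that library the fit called 59 of the 62 and 116 of the 142, 175 in all, beside 6.64% of all contigs. The SD of the 0.2 EC50 libraries had a median of 0.96 in the 142 and of 0.18 in the 62. Without control replicate 2 the count was 41 of 204, 40 from the smaller group and 1 from the larger, beside 2.14% of all contigs. Without control replicate 3 it was 47 of the 202 still tested, 41 from the smaller group and 6 from the larger, beside 2.33%. It was 41 of 193 tested without 0.5 EC50 replicate 1 and 37 of 185 without 0.5 EC50 replicate 2, beside 2.66% and 1.64%. Without both 0.2 EC50 replicate 2 and control replicate 2 it was 49 of 204, beside 2.13%. Of these 49, 35 were from the smaller group and 14 from the larger. With library weights, which count less consistent libraries less, the count was 195 of 204, beside 14.4% of all contigs.

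Membership also moved with single libraries. Applied to 11 libraries, the rule chose 148 contigs without 0.2 EC50 replicate 2, of which 116 were among the 204, and these were 63 of the 142 and 53 of the 62. It chose 134 without 0.2 EC50 replicate 1 and 130 without control replicate 2, with 119 and 112 shared. In both cases the larger group lost more, down to 59 and 61 of 142, than the smaller one, with 60 and 51 of 62 kept. Without control replicate 3 it chose 244, of which 145 were shared, 91 of the 142 and 54 of the 62. Without both 0.2 EC50 replicate 2 and control replicate 2 it chose 149, of which 121 were shared, and without 0.5 EC50 replicate 1 it chose 299, of which 184 were shared.

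For each library left out, its own values did not enter the choice of contigs, while those of the 11 others did. The contigs were thus picked to be low in the libraries outside 0.5 EC50 and high in those of 0.5 EC50, which all contigs were not, and this raises the shares and medians below. Among the 299 contigs chosen without 0.5 EC50 replicate 1, that library lay above all 9 others in 190 (63.5%), against 16.9% of all contigs, and its median difference from control was 0.73. Replicate 2 lay above all 9 others in 185 of 190 contigs (97.4%, against 14.0% of all) with a median of 1.33, and replicate 3 in 196 of 230 (85.2%, against 12.4%) with a median of 1.00. Of the 3, replicate 1 had the smallest share and the smallest median. On the other side, left-out control replicate 3 lay below all 3 libraries of 0.5 EC50 in 187 of 244 contigs (76.6%, against 34.0% of all) with a median of 0.77 above the other 2 controls. Each of the other 8 libraries outside 0.5 EC50 did so in 91.8% to 99.3% of contigs, against 33.2% to 38.3% of all. Left-out 0.2 EC50 replicate 2 had a median of -0.86, and replicates 1 and 3 had medians of 0.30 and 0.34. The shares are descriptions without a test, since contigs share libraries and are not replicates.

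Each contig name ends in a number between 1 and 4, and the sources used here do not say what it marks. This number was 1 in 43, 2 in 12, 3 in 92 and 4 in 57 of the 204, or 21.1%, 5.88%, 45.1% and 27.9%, against 23.6%, 18.1%, 26.3% and 32.1% of all contigs. Names ending in 3 made up 74 of the 142 and 18 of the 62 contigs, 52.1% and 29.0%. No enrichment was tested.

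The 204 contigs had 204 different Trinity gene names, the part before the isoform number. Another 182 contigs carried one of these names, always with a different last number, and 89 of them reached a mean of 2 FPKM. Such a shared name did not mark a shared level. Over the 1421 pairs of contigs that alone share a gene name, the correlation of the log2 mean level was 0.08, and the median correlation over the 12 libraries within a pair was -0.00194. The names are therefore not read as belonging to one gene across last numbers. The contig that shares its name with the most abundant member, TRINITY_DN665_c0_g1_i1_1, was listed at no more than 1.12 FPKM in any library, against 71.6 to 588 FPKM for TRINITY_DN665_c0_g1_i1_3.

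The 89 other contigs had a median difference between 0.5 EC50 and control of 0.02 on the log2 scale, and over all contigs it was 0.02 as well. In limma's test 3 were called higher and 3 lower, 6.74% of them, beside 11.8% of all contigs in either direction. The rule keeps contigs that meet it out of these 89. The number called was 3 without control replicate 1, control replicate 3, 0.5 EC50 replicate 1 or 0.5 EC50 replicate 3. It was 2 without 0.5 EC50 replicate 2 or without both 0.2 EC50 replicate 2 and control replicate 2. Over all contigs, only calls of a higher level were counted under these alternatives. Their share was 5.28% with all 12 libraries. In the alternatives, in the order given, it was 3.68%, 2.33%, 2.66%, 2.98%, 1.64% and 2.13%.

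The largest difference among the called contigs was that of TRINITY_DN4403_c0_g1_i1_1, with 2.46, 1.20 and 2.18 FPKM in control replicates 1 to 3, 4.27, 4.12 and 2.44 at 0.1 EC50, 4.55, 4.33 and 3.08 at 0.2 EC50, and 12.3, 5.25 and 7.86 FPKM at 0.5 EC50. It rose by 1.53 ± 0.293 on the log2 scale (SE, limma adjusted p = 0.011), with every exposed library above the control mean. The call ended without the 4 libraries whose low values step differently and without both 0.2 EC50 replicate 2 and control replicate 2, and over 24 alternatives the adjusted p ranged from 0.00644 to 0.0623. TRINITY_DN2139_c0_g1_i1_3 fell from 5.98 ± 0.810 to 3.34 ± 0.236 FPKM (SD, n = 3; log2 difference -0.78 ± 0.192, SE, limma adjusted p = 0.0289), and stood at 1.99 ± 0.859 FPKM at 0.1 EC50 and 2.41 ± 0.519 at 0.2 EC50. Its call ended without any one of the controls or of the 0.5 EC50 libraries, among other alternatives, with adjusted p values from 0.00459 to 0.0925. Neither contig is among the 204.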

How the data were processed

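Total RNA of whole algal cells went into Illumina TruSeq libraries, per the labels' protocols. The authors deposited 1 table of FPKM over 29140 contigs and 12 libraries, whose name states the unit. The sources used here do not name the assembler, aligner, estimator or filters behind it. Depth is unknown, so no counting interval is given. Sample titles gave the dose groups, 3 libraries in each.

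Scaling factors were medians over 10427 contigs above 1 FPKM in all libraries. The limma fit (limma 3.58.1, R 4.3.3) used log2(scaled FPKM + 1) of contigs whose mean reached 2 FPKM, all 4 groups, a trend in the prior variance and Benjamini-Hochberg adjustment over 11520 contigs, and was tested on simulated data. A log2 difference understates the change of low contigs. Scaling by median ratios was used in place of deposited values to match the rule. Figures used matplotlib 3.10.9 in Python 3.11.15.

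The contigs and the lists were chosen with earlier results of these data known, as were the 4 libraries left out together (control replicate 2, 0.2 EC50 replicate 2, 0.1 EC50 replicates 2 and 3). Named contigs are those with the largest rise, highest level, smallest differences at the lower doses, largest gap, or values nearest the limit of the rise, 2 each, the contigs sharing a name with the most abundant one, and the 2 called non-members with the largest difference. Alternatives covered the pseudocount, scaling, filters, the limits of the rule, each library left out, the replicate number as a block, a fit of 2 groups, no prior trend and library weights. Leaving out 0.2 EC50 replicate 2 and control replicate 2 together, and the dividing value of 0.75, were chosen after seeing the data.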

Additional observations from a re-analysis of the deposited data

How the results depend on the processing

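The number of contigs meeting the rule was 204. It was 400 without a filter, and 313 and 118 with a minimum mean of 1 and 5 FPKM. With a rise of at least 1.0 it was 134, with a limit of 0.2 on the lower doses 80, and with no condition on overlap 359. It was 135 without the 4 libraries left out together (101 of these contigs among the 204), and 130 to 299 when each library was left out. Other scalings and a pseudocount of 0.1 gave 178 to 267, of which 150 to 193 were among the 204. With dividing values of 0.5 and 1, 151 and 132 contigs dropped in 0.2 EC50 replicate 2, against 142.

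Of the 204, 67 were called higher at 0.5 EC50 than control, beside 5.28% of all contigs. At a minimum mean of 5 FPKM it was 35 of the 118 tested, beside 6.64%, and with library weights 195, beside 14.4%. When each library was left out it was 37 to 175, and the share of all contigs was 1.64% to 6.64%. Of the other contigs sharing names with the 204, 6 were called in either direction, 12 after quantile normalization and 23 with library weights. The number was 2 without both 0.2 EC50 replicate 2 and control replicate 2 and 2 to 8 when each library was left out. Over all contigs, only calls of a higher level were counted under these alternatives. Their share was 5.25% after quantile normalization and 2.13% without both libraries. At 5 FPKM fewer contigs were tested, 118 of the 204 and 7377 in all, and the causes of the differing counts were not tested. With the replicate block the 2 counts were 81 and 14, and 8.00% of all contigs were called higher. Same-numbered libraries deviated from their group means together, at a correlation over 0.1, in 8 of 18 pairs (-0.289 to 0.339), not in every pair. Between 0.1 and 0.2 EC50 all 3 pairs did (0.245, 0.272 and 0.339), and between control and 0.5 EC50 only number 1 (0.222, -0.224 and -0.203). In all, 8 of 12 libraries correlated best with their own number. Some pairs of different numbers correlated more than any of the 18. Control replicate 3 did so with 0.2 EC50 replicate 1 (0.537) and 0.5 EC50 replicate 2 (0.371), which also did so with each other (0.341). These values give at most a hint of pairing, which the labels do not settle. Differences from control of the 9 named members ranged from 0.54 to 2.30 under 16 alternatives each. Of these 144 values, 125 stayed within 1 SD of the 0.5 EC50 libraries. All kept their direction, which the rule largely fixes, since it placed every 0.5 EC50 library of these contigs above all other libraries. The lowest value, that of TRINITY_DN14826_c0_g1_i1_4 without control replicate 2, lay below the limit of the rule on the rise. Without counts, how much depth limits the lowest contigs is unknown.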
